A study of Homo sapiens with 6 samples.

Results

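Respiratory chain subunit genes were profiled in ARPE-19 cells, a human retinal pigment epithelial line, after knockdown of the translation initiation factor EIF1. A gene was taken as a member when it was protein coding and its symbol marked a subunit of complexes I to V, the carrier cytochrome c or a close relative (NDUFA, NDUFB, NDUFC, NDUFS, NDUFV, SDH, UQCR, CYC1, CYCS, COX4 to COX8, ATP5 and the mitochondrial MT- genes), without the NDUFAF assembly factors. This rule used symbols and gene type but no expression value, and it gave 103 of the 30618 genes in the count table, 90 encoded in the nucleus and 13 on the mitochondrial genome. By complex, 44 belonged to complex I, 4 to complex II, 11 to complex III, 20 to complex IV and 21 to complex V. CYCS stood alone, and 2 were read-through genes (NDUFC2-KCTD14 and ATP5MF-PTCD1), whose transcripts join a subunit gene to its neighbour. NDUFA4 and NDUFA4L2 were counted with complex IV, in which NDUFA4 is now placed.

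Both groups were cultured with 50 mM glucose and transfected with siRNA, a non-targeting control in the NC group and an siRNA against EIF1 in the siEIF1 group, with 3 libraries each. No library from cells without high glucose and no untransfected library entered the comparison, so the values describe the knockdown in high glucose alone. RNA was captured on its poly(A) tail and sequenced with strand information, and the 6 libraries held 26499929 to 31431479 counts. The lowest siEIF1 library was deeper than the highest NC library. EIF1 stood at 1305, 1254 and 1227 CPM (counts scaled to the size of the library by the TMM method) in NC replicates 1 to 3 and at 109, 104 and 103 CPM in the siEIF1 replicates, which checks the labels (log2 fold change -3.58 ± 0.055 SE). Of 11 markers of retinal pigment epithelium, RPE65 and TTR had no entry in the table and TYR was at or near 0, whereas KRT8 and KRT18 averaged 948 and 1222 CPM in NC, MITF 50.9 CPM and OTX2 73.3 CPM. RPE65 encodes the isomerase of the visual cycle. Of the 8 markers tested, 3 were called, 37.5% beside 20.6% of all genes tested, and all 3 were higher in siEIF1. These were KRT8 (log2 fold change 0.24), KRT18 (0.25) and RLBP1, which was low (0.530 and 1.55 CPM on average in NC and siEIF1, log2 fold change 1.55) and alone passed the 2-fold limit. Over the 8 tested markers, 4 fold changes were positive and 4 negative, the lowest -0.40. The part of the markers in the results that follow was not tested.

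The respiratory chain passes electrons from NADH (complex I) or succinate (complex II) through complex III and cytochrome c to oxygen (complex IV), and complex V uses the resulting proton gradient to make ATP. Complexes I, III, IV and V join nuclear subunits, which are translated in the cytosol and imported, to subunits made inside the mitochondrion. Complex II is wholly nuclear. The mitochondrial genome is transcribed as long precursors from both strands that are cut into single mRNAs, and MT-ND6 is its only protein gene on the light strand. Retinal pigment epithelium is rich in mitochondria and depends on oxidative phosphorylation to spare glucose for the photoreceptors.

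Nuclear subunit genes are known to share binding motifs for NRF1, for the ETS factor GABP (also named NRF2) and for YY1 near their start sites, so these letters were counted in the RefSeq promoter windows (GRCh38.p14, 250 bases before to 50 after the start, both strands), with 71 of 90 nuclear members matched. The NRF1 motif (GCGC, any base, then TGCGC) was present in 17 member windows, 23.9%, and in 8.57% of all 15842 protein-coding windows. The ETS motif (CCGGAAG) was present in 20 windows, 28.2% beside 14.2% of all, and the YY1 motif (AANATGGC) in 22 windows, 31.0% beside 7.92% of all. Among 10427 windows of genes above a limit on the mean count, the shares were 11.7% for NRF1, 19.2% for ETS and 10.1% for YY1. This limit is not the count filter of the test, and it was not applied to the member windows. None of the 3 motifs contains another, and a window could hold more than 1. Complex II is shown because its subunits diverged in the comparison described later, and UQCRQ of complex III because its mRNA fell. Capitals mark the motif, SDHA matches are named by the motif's place before the start site, and a motif on the other strand reads as its reverse complement.

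SDHA NRF1 at -166, chr5:218144-218173, plus strand: ggtccgctttGCGCAGGCGCggcgccccca
SDHA NRF1 at -117, chr5:218193-218222, plus strand: gtggcatggtGCGCAGGCGCgatgtccccc
SDHA NRF1 at -68, chr5:218242-218271, plus strand: ccggcgtggtGCGCAGGCGCggtatccccc
SDHD NRF1, chr11:112086753-112086782, plus strand: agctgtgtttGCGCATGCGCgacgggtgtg
SDHD ETS, chr11:112086785-112086814, plus strand: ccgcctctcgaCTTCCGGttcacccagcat
SDHB ETS, chr1:17054142-17054171, minus strand: cacccgggaaaCCGGAAGccgcctcccact
UQCRQ ETS, chr5:132866577-132866606, plus strand: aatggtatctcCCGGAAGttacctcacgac

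The SDHA matches recurred every 49 bases, and its window held 4 in all. The windows of CYCS, ATP5MC2 and NDUFB3 held none of the 3 motifs, which says only that these letters were not there. No window was used under the symbols NDUFC2, SDHC or NDUFB9. The window of NDUFC2-KCTD14, which covers the annotated start of NDUFC2, held none of the 3 motifs.

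Respiratory chain mRNAs changed little after EIF1 knockdown, and none doubled or halved. Of the 97 members that passed the count filter, 11 passed the test at an adjusted p under 0.05 (edgeR's quasi-likelihood test, adjusted by Benjamini-Hochberg across 16749 genes), that is 11.3% beside 20.6% of all genes tested. Higher were 5 members, among them SDHA, SDHC, ATP5MC2 and MT-ATP8, beside a background of 10.2%, and lower were NDUFC2, CYCS, UQCRQ, NDUFB3, NDUFS4 and NDUFB9, 6 members beside 10.4%. No member passed the study's added limit of a fold change above 2 or below 0.5, which 1.71% of all genes passed; the count was also 0 at an unadjusted p under 0.05 and with DESeq2. The fitted level of 83 members, 85.6%, lay within 10% of the NC level, compared with 48.9% of all genes tested. Among the 86 members that were not called, the 95% interval of the change stayed within 25% of the NC level in either direction for 83, the exceptions being MT-ND6, UQCRHL and COX7A1. Their error was small: the median SE was 0.059 over the members and 0.086 over all genes, on the log2 scale.

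**Figure D1:**
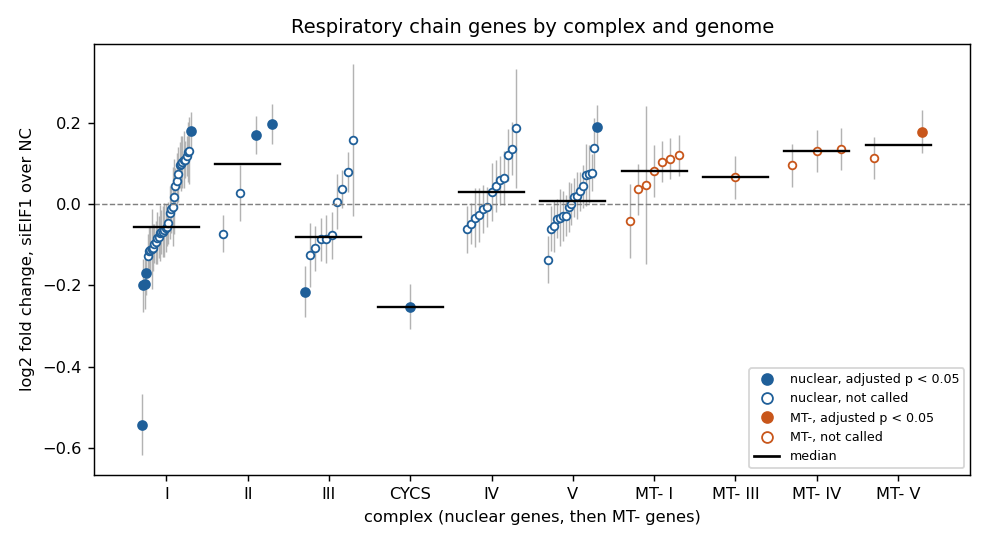
Log2 fold change of siEIF1 over NC (vertical axis) for each tested member, by complex, with nuclear genes to the left and MT- genes to the right; bars are SE, filled points have an adjusted p under 0.05 and black lines are medians (the 2 read-through genes are left out). The fold changes run from -0.54 for NDUFC2 to 0.20 for SDHA, and 12 of 13 MT- genes lie above 0.

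The 2 genomes were then set side by side. The median log2 fold change was 0.10 over the 13 MT- members, -0.01 over the 84 tested nuclear members and 0.00 over all genes tested. In 12 of 13 MT- members the fold change was above 0, and MT-ND4L was the exception. The MT- median was positive under each alternative scaling, filter and left-out library, from 0.08 to 0.15. In 8 MT- members all 3 siEIF1 libraries lay above all 3 NC libraries and in 0 below, whereas 18.2% of all genes lay above and 18.9% below without overlap. Of the nuclear members, 8 lay above and 11 below, out of 84. The 13 MT- genes come from shared precursor transcripts and are not independent of each other.

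Mitochondrial mRNAs made up a large part of each library. They took 8.20%, 8.43% and 8.09% of all counts in NC and 8.94%, 8.56% and 8.44% in siEIF1, where the lowest siEIF1 library was just above the highest NC library. Nuclear members took 0.820%, 0.795% and 0.803% in NC and 0.804%, 0.816% and 0.750% in siEIF1, with overlap. The ratio of the 2 sums was 10.0, 10.6 and 10.1 in NC and 11.1, 10.5 and 11.3 in siEIF1, also with overlap, since siEIF1 replicate 2 fell among the NC libraries. The median log2 level of the MT- members minus that of the nuclear members, each gene relative to its NC mean, was -0.04, 0.04 and -0.01 in NC and 0.13, 0.06 and 0.18 in siEIF1. With 3 libraries in each group, an exact permutation test cannot give a two-sided p under 0.10, so none was used for these sums. More mitochondrial RNA per cell and less other poly(A) RNA per cell cannot be told apart in such bulk shares.

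**Figure D2:**
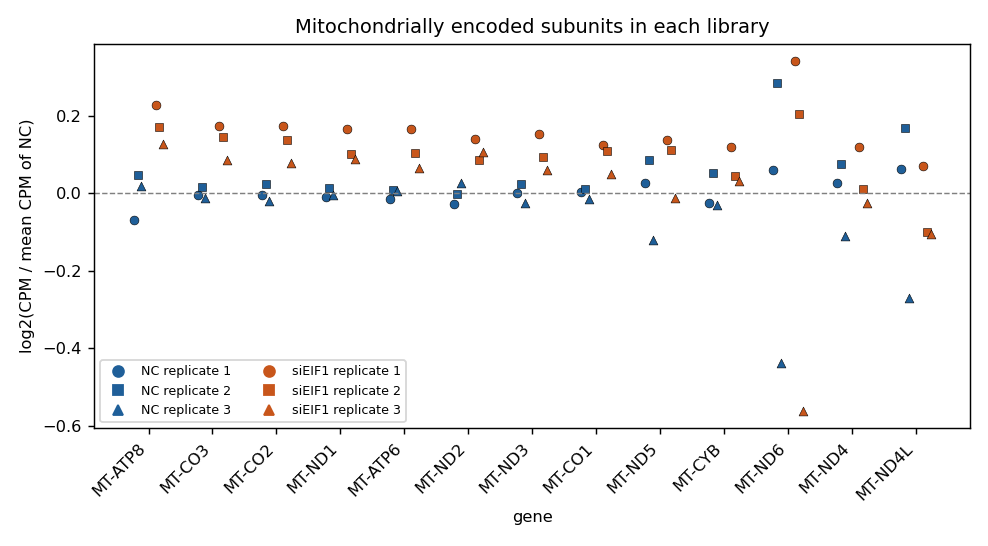
Level of each mitochondrially encoded subunit mRNA in every library, as log2 of CPM over the mean CPM of the 3 NC libraries, for NC and siEIF1 replicates 1 to 3. From MT-ATP8 to MT-CO1, the first 8 genes, every siEIF1 point is above every NC point, while MT-ND6 spreads widely in both groups.

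MT-ATP8, which encodes a small membrane subunit of ATP synthase, was the only MT- gene to pass the test. This was 1 of 13, 7.69% beside 20.6% of all genes tested. MT-ATP8 stood at 1510, 1637 and 1606 CPM in NC and 1858, 1786 and 1733 CPM in siEIF1, so that the groups did not overlap (log2 fold change 0.18 ± 0.053 SE, adjusted p = 0.0311 by edgeR). MT-ATP8 is 207 bases long and shares its last 46 bases with MT-ATP6, on the same strand of the same bicistronic mRNA, so that reads across this stretch cannot be assigned to 1 gene. MT-ATP6, the proton channel subunit a, stood at 4463, 4536 and 4530 CPM and then 5060, 4852 and 4723 CPM and did not pass the test (log2 fold change 0.11 ± 0.051, adjusted p = 0.142). Its nuclear copy MTATP6P1 took 16308 to 21474 counts in each library, and a read that matched both places equally was not in the counts of unique reads. The MT-ATP8 call was kept in 1 of the 6 fits that left out a library.

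The 3 core subunits of cytochrome c oxidase were each above NC in every siEIF1 library without passing the test. Of all genes tested, 18.2% lay above NC without overlap. MT-CO3 stood at 8891, 9019 and 8855 CPM in NC and 10063, 9876 and 9474 CPM in siEIF1 (log2 fold change 0.14 ± 0.052, adjusted p = 0.0820, and 0.0490 with the replicate number as a block in edgeR). MT-CO2 stood at 6074, 6192 and 6006 CPM and then 6874, 6706 and 6429 CPM (0.13 ± 0.052, adjusted p = 0.0944). MT-CO1, the subunit that binds oxygen, was the most abundant member per length, at 15479 CPM per kilobase over all libraries, and stood at 23144, 23258 and 22833 CPM and then 25180, 24897 and 23899 CPM (0.10 ± 0.053, adjusted p = 0.234).

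None of the 7 complex I subunits of the mitochondrial genome was called, beside 20.6% of all genes tested. In 3 of them, 42.9%, the groups did not overlap, beside 37.1% of all genes tested. MT-ND1, MT-ND2 and MT-ND3 were above NC in all siEIF1 libraries, with log2 fold changes of 0.12, 0.11 and 0.10 and adjusted p of 0.121, 0.141 and 0.176 in edgeR. MT-ND4, MT-ND4L, MT-ND5 and MT-ND6 overlapped between the groups, with fold changes of 0.04, -0.04, 0.08 and 0.05 on the same scale. The same held for MT-CYB, the cytochrome b core of complex III (0.07 ± 0.053, adjusted p = 0.433). Without siEIF1 replicate 3, MT-ND3 and MT-ND5 both had a log2 fold change of 0.12, and MT-ND6 had 0.28 ± 0.134. MT-ND6 varied most: it stood at 1058, 1236 and 748 CPM in NC and 1284, 1170 and 687 CPM in siEIF1, with replicate 3 the lowest in both groups. Its coefficient of variation was 24.4% in NC and 30.3% in siEIF1, while those of MT-CO1 were 0.954% and 2.73%. In human cells the MT-ND6 mRNA is known to lack a long poly(A) tail. In NC, MT-ND4L, MT-ND4 and MT-ND5 in replicate 3 were also below the other replicates, at 76.5%, 89.3% and 88.4% of the mean of replicates 1 and 2.

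The 2 mitochondrial ribosomal RNAs served for comparison, in libraries captured by poly(A) tail, so their shares need not follow their levels in the cells. MT-RNR2 took 0.950%, 0.975% and 0.971% of counts in NC and 0.925%, 0.975% and 1.02% in siEIF1, and MT-RNR1 took 0.126% to 0.156% and 0.0991% to 0.210%, so that both overlapped between the groups.

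Complex I held both directions among its nuclear subunits: of 36 tested, 1 was higher and 4 were lower, with a median log2 fold change of -0.06. This was 13.9% called beside 20.6% of all genes tested. NDUFC2, a membrane arm subunit, showed the largest change of any tested member. It stood at 16.2, 17.3 and 17.1 CPM in NC and 11.0, 12.0 and 11.8 CPM in siEIF1 (log2 fold change -0.54 ± 0.075 SE, adjusted p = 2.3e-04 by edgeR), so that every siEIF1 library was well below every NC library. Its exons on chromosome 11 are shared with the read-through gene NDUFC2-KCTD14, which took more counts (7299 against 2450 over the 6 libraries). NDUFC2-KCTD14 stood at 46.5, 42.7 and 43.5 CPM and then 40.9, 40.7 and 38.9 CPM (-0.14 ± 0.056, adjusted p = 0.103). Summed, the 2 entries gave a log2 ratio of -0.24. The deposited counts do not tell how reads on the shared exons were divided, and the value for NDUFC2 alone is therefore uncertain.

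The accessory subunit NDUFB3 fell from 34.6, 35.4 and 34.1 CPM to 30.2, 32.0 and 28.7 CPM (-0.20 ± 0.061, adjusted p = 0.0355 by edgeR). NDUFS4, an accessory subunit of the NADH-oxidizing arm, and NDUFB9 were also called, and they are named because the list of called members was short. NDUFS4 stood at 43.1, 40.9 and 41.4 CPM and then 35.6, 39.8 and 33.8 CPM (-0.20 ± 0.066, adjusted p = 0.0467). NDUFB9 stood at 102, 95.0 and 97.3 CPM and then 87.1, 92.9 and 81.7 CPM (-0.17 ± 0.056, adjusted p = 0.0474). NDUFB10, likewise named after its value was seen, had an adjusted p of 0.120, which became 0.0426 with the replicate block in edgeR (log2 fold change -0.13 ± 0.054). By family, 8 of 11 NDUFB and 7 of 8 NDUFS genes had a negative fold change, and 7 of 12 tested NDUFA genes a positive one. The family medians were -0.08 for NDUFB, -0.07 for NDUFS and 0.03 for NDUFA.

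Complex II, succinate dehydrogenase, was the complex with the highest nuclear median (0.10). Without siEIF1 replicate 3 this median was 0.14, close to the 0.12 of complex IV. Of the 4 subunits of complex II, 2 were called, 50% beside 20.6% of all genes tested. SDHA, the flavoprotein that oxidizes succinate, stood at 80.4, 87.1 and 84.4 CPM in NC and 96.0, 98.5 and 94.3 CPM in siEIF1 (0.20 ± 0.049, adjusted p = 0.0120 by edgeR). SDHC, a membrane anchor that binds haem, stood at 96.1, 91.6 and 94.4 CPM and then 105, 108 and 105 CPM (0.17 ± 0.046, adjusted p = 0.0185). Neither gene overlapped between the groups. The iron-sulfur subunit SDHB stood at 55.3, 50.6 and 51.0 CPM and then 54.0, 57.9 and 48.0 CPM, with overlap (0.03 ± 0.069, adjusted p = 0.830). The other anchor, SDHD, stood at 111, 115 and 111 CPM and then 110, 107 and 104 CPM (-0.07 ± 0.047, adjusted p = 0.313). The SDHA exons are shared with a second annotated coding gene, CTD-2546F11.1, which took 12985 counts beside 15665 for SDHA and had a like fold change (0.18 ± 0.060, adjusted p = 0.0466).

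**Figure D3:**
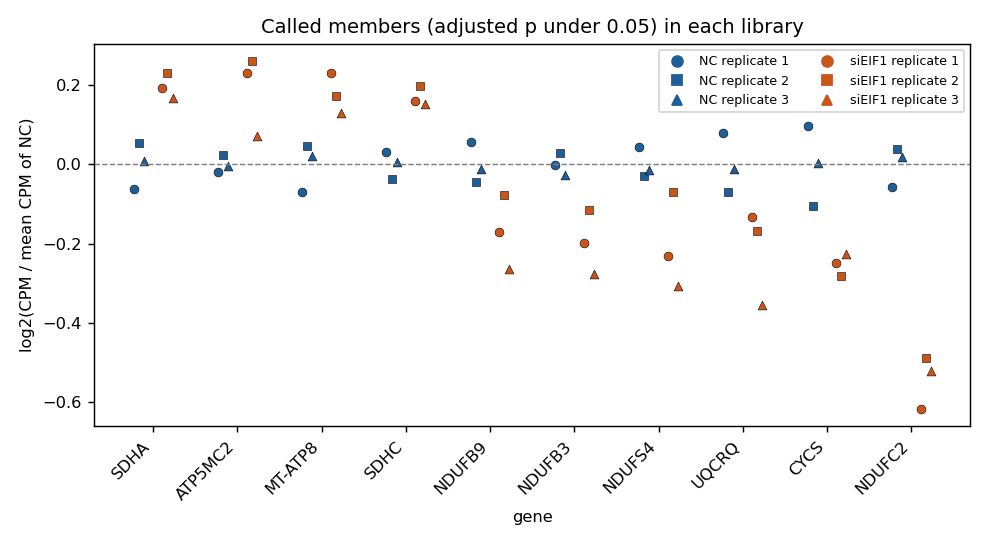
Called members named in the text (10 of 11, adjusted p under 0.05), as log2 of CPM over the mean CPM of the 3 NC libraries, for NC and siEIF1 replicates 1 to 3. In each gene all siEIF1 points lie on 1 side of all NC points, and NDUFC2 stands apart with the lowest values.

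Around complex III, the mobile carrier and a small accessory subunit fell. CYCS, which encodes cytochrome c, the electron carrier between complexes III and IV that also triggers apoptosis when released, stood at 158, 137 and 148 CPM in NC and 125, 122 and 126 CPM in siEIF1 (-0.25 ± 0.055, adjusted p = 0.00531 by edgeR). The highest siEIF1 library was below the lowest NC library. UQCRQ stood at 88.2, 79.5 and 82.7 CPM and then 76.1, 74.2 and 65.3 CPM (-0.22 ± 0.063, adjusted p = 0.0281). The other 9 nuclear members of complex III were not called, so that 10% were called beside 20.6% of all genes tested. The median over all 10 was -0.08. CYC1, the cytochrome that hands electrons to cytochrome c, had a log2 fold change of -0.11 ± 0.055 (adjusted p = 0.195), and UQCRH, the hinge protein, -0.09 ± 0.054 (adjusted p = 0.290). UQCRHL, a near copy of UQCRH, was low, at 2.23 CPM on average in NC, and reads may be divided between the 2.

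None of the 13 tested nuclear subunits of complex IV was called by edgeR at a background of 20.6%, and their count was also 0 at an unadjusted p under 0.05 and with DESeq2. With the MT-CO genes, 16 were tested and none called by edgeR, while MT-CO2 and MT-CO3 had an unadjusted p under 0.05 and were called by DESeq2. The fold changes of the 13 nuclear subunits ran from -0.06 (COX6A1) to 0.19 (COX7A1) with a median of 0.03. In 0 of 13 were the groups apart, beside 37.1% of all genes tested. COX6C had the smallest p, at 95.7, 95.7 and 95.9 CPM in NC and 105, 116 and 94.2 CPM in siEIF1 (0.14 ± 0.065, adjusted p = 0.170 by edgeR). The isoform pairs of complex IV, in which 1 form is typical of heart and muscle, lung or testis, were of the general type: COX6A2, COX6B2, COX8C and NDUFA4L2 had at most 5 counts in any library and were not tested. COX4I2 and COX7B2 had no entry in the table. COX7A1, the muscle form, took 4.72% to 5.07% of the summed COX7A1 and COX7A2 counts in NC and 4.95% to 5.83% in siEIF1, with overlap. By CPM per kilobase of the canonical transcript, COX4I1 was among the highest nuclear members (351), together with ATP5MC2 (460), COX7C (395) and ATP5F1B (339). All were well below the lowest MT- gene, MT-ND6, at 1963. The deposited FPKM, also scaled by length, ranked nuclear members otherwise. In NC it was 44.6 to 46.8 for COX4I1 and 56.1 to 57.6 for ATP5MC2, below COX8A at 130 to 136.

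In complex V, ATP5MC2 was the only nuclear subunit called of 18 tested, 5.56% beside 20.6% of all genes tested. ATP5MC2 is 1 of 3 genes that encode the same mature subunit c of the proton-driven ring and differ in their import sequences. ATP5MC2 stood at 268, 276 and 271 CPM in NC and 318, 325 and 286 CPM in siEIF1 (0.19 ± 0.055, adjusted p = 0.0255 by edgeR). ATP5MC1 stood at 58.4, 54.4 and 52.4 CPM and then 49.6, 52.4 and 48.2 CPM, in the other direction and without passing the test (-0.14 ± 0.058, adjusted p = 0.119). ATP5MC3 had a log2 fold change of -0.03 ± 0.051 (adjusted p = 0.749). As a share of the counts of the 3 genes, ATP5MC2 went from 58.7% ± 1.07 to 62.7% ± 0.532 (SD, n = 3 libraries each), with the lowest siEIF1 library (62.1%) above the highest NC library (59.4%). ATP5MC1 went from 11.9% ± 0.557 to 10.2% ± 0.324 and ATP5MC3 from 29.4% ± 0.521 to 27.1% ± 0.285, each without overlap. An exact permutation test on such shares cannot go below a two-sided p of 0.10. The 5 ATP5F1 genes of the catalytic head lay between -0.05 and 0.04.

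Members outside the count filter were NDUFA7, NDUFA4L2, COX6A2, COX6B2, COX8C and ATP5MGL. NDUFA7 had 59 counts in all, while an annotated gene with shared exons, CTD-2550O8.5, had 6310, so the low NDUFA7 value does not show that this subunit was missing. The same kind of overlap took more counts than the member itself for NDUFB8, NDUFA11, ATP5PO, ATP5MG and UQCR11. None of these 5 was called.

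One library bore on the nuclear members throughout. In siEIF1 replicate 3, 59 of the 84 nuclear members were lower than in any of the other libraries, and the median log2 ratio to the NC mean was -0.12, compared with 0.02 and 0.05 in siEIF1 replicates 1 and 2. Most subunit genes are short, with a median transcript of 760.5 bases, and 62 of the 84 were among the shortest 25% of tested genes. Over those 25% without the members, siEIF1 replicate 3 had a median of -0.09, and over the longest 25% of genes 0.09, whereas replicate 1 had 0.01 and -0.01 and replicate 2 had 0.03 and 0.00. The part of this length trend in the members' values was not tested. Complexes I, III, IV and V had medians of -0.14, -0.18, -0.14 and -0.08 in siEIF1 replicate 3, and complex II had 0.02. The 4 complex II transcripts are 1015 to 2693 bases long, each longer than the member median. With a length and GC trend over all genes removed from the fold changes, the nuclear median was 0.02, beside -0.01 before. For complexes I to V the nuclear medians were then -0.02, 0.14, -0.03, 0.05 and 0.05, beside -0.06, 0.10, -0.08, 0.03 and 0.01.

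**Figure D4:**
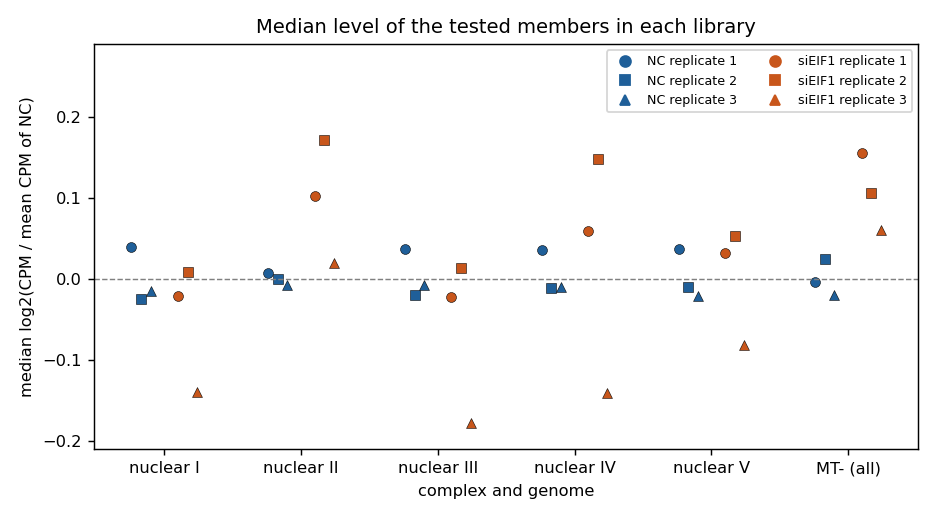
Median over the tested members of log2 of CPM over the mean CPM of the 3 NC libraries, for the nuclear members of each complex and the MT- members, in each library. In siEIF1 replicate 3 the nuclear medians of complexes I, III, IV and V are the lowest of the 6 libraries, while the MT- median (0.06) stays above the 3 NC libraries.

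**Figure D5:**
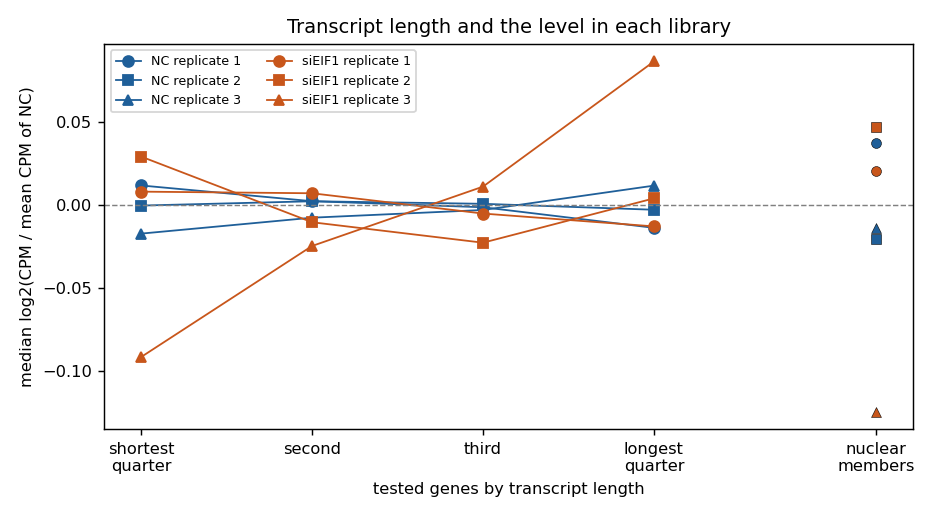
Median log2 of CPM over the mean CPM of the 3 NC libraries over all tested genes in 4 equal classes of transcript length, for each library, with the nuclear members at the right. In siEIF1 replicate 3 the line climbs from -0.09 in the shortest class to 0.09 in the longest.

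Without siEIF1 replicate 3, 17 members were called, 15 higher and 2 lower, in a fit that called 20.5% of all genes. The calls of NDUFB3, NDUFB9, NDUFS4 and UQCRQ were lost, and those of MT-ND1, MT-CO1, MT-CO2, MT-CO3, MT-ATP6, NDUFA1, NDUFA3, COX6B1, COX6C and ATP5MF were gained, all higher. In that fit MT-CO3 had a log2 fold change of 0.16 ± 0.039 (adjusted p = 0.00953 by edgeR) and COX6C 0.21 ± 0.053 (adjusted p = 0.0121). The nuclear median changed sign to 0.04, the complex I nuclear median became 0.00 and the MT- median became 0.12. The complex IV nuclear median moved from 0.03 to 0.12 and that of complex II from 0.10 to 0.14. Leaving out each other library in turn gave 3 to 6 called members, in fits that called 13.2% to 19.1% of all genes. NDUFC2 and CYCS were called in all 6 such fits. SDHA lost its call without siEIF1 replicate 2 (adjusted p = 0.0584). SDHC lost it without NC replicates 2 or 3 or siEIF1 replicate 2, with adjusted p up to 0.0949. UQCRQ kept its call only without NC replicate 2 or siEIF1 replicate 1. ATP5MC2 and MT-ATP8 kept theirs only without siEIF1 replicate 3, and NDUFB3, NDUFB9 and NDUFS4 only without siEIF1 replicate 2.

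Assembly factors, which help to build the complexes without staying in them, were counted from a list. Of 57, 2 were higher and 12 lower, 24.6% beside 20.6% of all genes tested, with a median log2 fold change of -0.08. LYRM7, a chaperone for the Rieske iron-sulfur protein of complex III, fell from 15.7, 16.9 and 15.0 CPM to 9.07, 9.22 and 7.67 CPM (-0.87 ± 0.092, adjusted p = 2.5e-05 by edgeR). UQCC2, which aids cytochrome b synthesis, fell from 52.7, 48.9 and 49.0 CPM to 43.8, 39.0 and 36.0 CPM (-0.34 ± 0.070, adjusted p = 0.00388). For complex I, NDUFAF4 (-0.41 ± 0.070), TMEM126B (-0.32 ± 0.055) and TIMMDC1 (-0.22 ± 0.046) fell. For complex IV, COX15, which makes haem A, rose from 37.3, 37.1 and 38.0 CPM to 45.7, 47.7 and 46.4 CPM (0.31 ± 0.052, adjusted p = 9.1e-04), while CMC2 (-0.40) and HIGD1A (-0.30) fell. For complex V, TMEM70 (-0.28) and TMEM242 (-0.30) fell and FMC1 (0.32) rose. Without siEIF1 replicate 3 the count was 3 higher and 11 lower.

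Genes that maintain and express the mitochondrial genome were called about as often as all genes or less. Of 11 genes for copying and transcription, 2 were called, both lower, which is 18.2% beside 20.6% of all genes, with a median of -0.17 and 10 of 11 below 0. TFAM, the packaging and transcription factor, stood at 56.4, 56.6 and 54.3 CPM in NC and 49.5, 50.4 and 50.2 CPM in siEIF1 (-0.16 ± 0.049, adjusted p = 0.0395 by edgeR). The helicase gene TWNK fell from 46.1, 46.6 and 46.5 CPM to 34.9, 38.3 and 42.4 CPM (-0.27 ± 0.067, adjusted p = 0.0127). MTERF2 was not called (adjusted p = 0.0594, and 0.0499 with the replicate block in edgeR). Of 17 genes for processing and stability of mitochondrial mRNA, 2 were called, both lower, 11.8% beside 20.6% of all genes. These were PNPT1, the RNA-degrading polynucleotide phosphorylase (41.2, 38.8 and 36.8 CPM, then 30.5, 27.5 and 30.6 CPM, log2 fold change -0.40 ± 0.066), and FASTKD2 (-0.20 ± 0.053). SLIRP, the partner of LRPPRC in mRNA stability, had an adjusted p of 0.0700, and 0.0444 with the block in edgeR (log2 fold change -0.17).

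Of 8 tested regulators of these genes, 1 was higher and 1 lower, both from the same ETS factor: GABPA, the DNA-binding subunit (0.21 ± 0.061, adjusted p = 0.0263), and GABPB1, its partner (-0.33 ± 0.081, adjusted p = 0.0119 by edgeR). This was 25% of the list beside 20.6% of all genes, and without siEIF1 replicate 3 the count was 1 higher and 3 lower. PPARGC1B, a coactivator at 2.09 CPM in NC, had an adjusted p of 0.0662, and 0.0232 with the block in edgeR (log2 fold change -0.71 ± 0.254). In the citric acid cycle and pyruvate dehydrogenase, which feed electrons to the chain, 2 of 17 were called, both higher, 11.8% beside 20.6% of all genes. Without siEIF1 replicate 3 there were 2 higher and 1 lower. CS, citrate synthase, rose from 166, 165 and 160 CPM to 186, 182 and 182 CPM (0.16 ± 0.044, adjusted p = 0.0176 by edgeR). FH, fumarase, had an adjusted p of 0.0505, and 0.0262 with the block in edgeR (log2 fold change -0.15).

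Of 21 genes for the outer membrane and protein import, 1 was higher and 6 lower, 33.3% called beside 20.6% of all genes. The import receptor TOMM20 fell from 356, 347 and 333 CPM to 280, 284 and 275 CPM (-0.30 ± 0.047, adjusted p = 5.7e-04 by edgeR), and TIMM8A (-0.54 ± 0.098) and TIMM50 (-0.23 ± 0.048) fell as well. Among 4 carriers, 1 was called (without siEIF1 replicate 3, 1 higher and 1 lower), and this ADP/ATP carrier, SLC25A4, fell from 62.8, 60.1 and 58.6 CPM to 50.4, 49.3 and 43.8 CPM (-0.34 ± 0.061, adjusted p = 0.00162). The phosphate carrier SLC25A3 was not called (0.13 ± 0.050, adjusted p = 0.0810, and 0.0372 with the block in edgeR).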

How the data were processed

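Poly(A) RNA of ARPE-19 cells was sequenced in paired 150 nt reads, with 3 NC and 3 siEIF1 libraries grouped and numbered by their titles. The authors trimmed reads with FASTX-Toolkit 0.0.13, dropped those under 16 nt, aligned the rest to GRCh38 with HISAT2 and deposited counts of uniquely mapped reads per gene, without normalization, and FPKM values. The counting program, strand setting and annotation release are not given in the sources used here. Reads from overlapping genes or near-identical copies are therefore uncertain, and for mitochondrial genes unique mapping discards reads shared with nuclear copies. All table columns were assigned, with 0 left unmatched.

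Counts were fitted with edgeR 4.0.16 (R 4.3.3; TMM, filterByExpr, quasi-likelihood test, Benjamini-Hochberg adjustment over 16749 genes), with calls made at an adjusted p under 0.05. The SE was derived from the F statistic, and the script was tested on simulated data. CPM values were computed from the counts, and CPM per kilobase used the canonical transcript of GENCODE release 44. Libraries held 26499929 to 31431479 counts. The SE reflects the spread between libraries as well as the counts of a gene: MT-ND6, with 20510 to 39916 counts, had an SE of 0.195. Same-numbered NC and siEIF1 libraries deviated together (correlations 0.161, 0.155 and 0.189 of deviations from group means), so fits with the replicate number as a block were also read. With the block 25.5% of all genes were called, beside 20.6% without it, so an adjusted p that crosses 0.05 there is not particular to the gene. The replicates are described as biological, without an account of separate passages. The p-values rest on the spread between these libraries, moderated in edgeR by the spread of other genes. MT-ND2, with coefficients of variation of 1.85% in NC and 1.95% in siEIF1, still had an SE of 0.050. DESeq2 1.42.0, limma 3.58.1 on log2(FPKM + 1) and log2(FPKM + 0.1), other normalizations and filters, a length and GC trend (mgcv 1.9.3) and fits without each library were the alternatives.

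Members, lists and tests were chosen with earlier results of these data known. Named are EIF1, all MT- members, in each complex the 3 nuclear members with the smallest p and those with the extreme fold changes, isoform pairs, members outside the filter and 3 genes of each list, and others only where said or where counts are small. Values of some called genes are not reported here.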

Additional observations from a re-analysis of the deposited data

How the results depend on the processing

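No called member changed direction under the alternatives run. The number of all genes called higher, 1702 in the main analysis, was 1071 with limma on log2(FPKM + 0.1) and 1067 on log2(FPKM + 1). Without 1 library it ranged from 1118 to 1709, and that of lower genes, 1744 in the main analysis, from 1124 to 1763. Members called higher numbered 3 rather than 5 with limma at either pseudocount, and 1 to 15 without 1 library. Members called lower, 6 in the main analysis, numbered 2 to 5 without 1 library. With the length and GC trend removed, the MT- median moved from 0.10 to 0.15, that of the complex IV MT- genes from 0.13 to 0.17 and that of the complex V MT- genes from 0.15 to 0.22. The cause of these shifts was not tested. The replicate block called more genes in all, 25.5% beside 20.6% in the main analysis. Of the members it called 6 higher and 7 lower, adding MT-CO3 and NDUFB10, and beside the values given with the results it changed no other call of a named gene. DESeq2 called 7 members higher and 4 lower, adding MT-CO2 and MT-CO3 without NDUFB3 and NDUFS4. The calls of MT-ATP8 and NDUFB9 were among those lost with limma, which added NDUFC2-KCTD14, and those of NDUFB9 and NDUFS4 were lost with upper-quartile normalization. Depth limits the rarest members: the 95% interval of the change in UQCRHL ran from -15.7% to 47.7%.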
